A study of Mus musculus with 9 samples.

Results

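The genes described here are the D-type cyclins CCND1, CCND2 and CCND3, their kinases CDK4 and CDK6, and the CDK inhibitors CDKN1A (p21), CDKN1B (p27), CDKN2A (p16 and ARF), CDKN2B (p15) and CDKN2C (p18). They are 10 of the 58735 genes in the count table, taken by gene name. RNA came from cells of the established line Caki, derived from a human clear cell renal carcinoma. The MX group carried an empty retroviral vector, the YAP1 group the same kind of vector with YAP1 in wild-type form, and the YAP1-S127A group a mutant form in which alanine replaces serine in the site that Hippo kinases phosphorylate. Each group held 3 libraries, 9 in all, and all cells had been selected with G418 at 200 to 400 µg/ml. The sources used here give neither the promoter of the vectors, nor the number of clones behind each group, nor whether a group's libraries were separate cultures. The p-values therefore speak only to the scatter among these libraries, and that scatter may be technical.

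A cell that leaves the resting state makes D-type cyclins, which bind CDK4 or CDK6 and phosphorylate the retinoblastoma protein RB1, so that E2F factors can switch on genes of DNA synthesis. Inhibitors of the INK4 family (CDKN2A, CDKN2B, CDKN2C and CDKN2D) bind CDK4 and CDK6 and keep the cyclins off them. Inhibitors of the CIP/KIP family (CDKN1A, CDKN1B and CDKN1C) bind cyclin-CDK complexes, chiefly those of CDK2. The coactivator YAP1 binds TEAD factors and is known for driving proliferation, and in clear cell renal carcinoma loss of the short arm of chromosome 9 and high cyclin D1 are both known.

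Libraries held 15789722 to 24811150 counts, and correlations over genes were 0.983 to 0.990 within groups and 0.959 to 0.985 between groups. Mitochondrially encoded transcripts made up 1.896 to 6.60% of all counts in MX, 3.50 to 11.4% with YAP1 and 7.40 to 29.6% with YAP1-S127A. Counts of the gene YAP1 do not separate the cell's own transcript from the introduced one, which MX lacked. They went from 99.9 ± 8.64 CPM (read counts scaled to the size of the library, SD, n = 3) in MX to 1220 ± 268 with YAP1 and 688 ± 55.0 with YAP1-S127A. Between the constructs the log2 fold change was -0.83 (edgeR adjusted p = 0.00383), so they differ in YAP1 RNA level as well as in the mutation. With the mitochondrial share as a term of the fit it was -0.80 and missed the threshold of 0.05 (edgeR adjusted p = 0.0541). ANKRD1, a textbook YAP target, had 2.15 ± 0.330, 8.81 ± 1.17 and 15.2 ± 2.60 CPM (SD, n = 3) in MX, YAP1 and YAP1-S127A. Among 13 tubule and clear cell markers PAX8, the nuclear factor of the tubule lineage, stood at 285 ± 5.36 CPM (SD, n = 3) in MX. CDH6, VIM and KRT8 of the same list had 585, 2930 and 1810 CPM there. PAX2 had 1 count over the 9 libraries and LRP2, the endocytic receptor megalin, had 5. CA9 and NDUFA4L2, clear cell markers of the list, were low too, at 0.489 and 1.92 CPM in MX and 59 and 178 counts over the 9 libraries. Of the 10 tested markers of that list, 5 were lower with YAP1 (median log2 fold change -0.43), and 5 were lower and 1 higher with YAP1-S127A (median -0.60), against MX in edgeR's test. Of 6 tested fibroblast markers, 1 and 5 were higher. In the same order, 3.23% and 9.53% of all tested genes were higher, and 3.58% and 8.84% lower. Summed fibroblast markers were 774 to 1310 CPM in MX, 1340 to 1690 with YAP1 and 2150 to 3960 with YAP1-S127A. Most of each sum was COL1A1, at 744 to 1270, 1300 to 1650 and 2050 to 3740 CPM, with a mean of 929 CPM in MX. Over the 9 libraries PDGFRA had 9 counts, THY1 22, FAP 103, DCN 106 and COL3A1 148. The part of either marker list in the results was not tested. Summed endothelial markers stayed at 1.02 to 2.03 CPM and leukocyte markers at 1.78 to 3.74 CPM, with CD3E at 0. In bulk RNA, fewer cells of a type and less RNA per cell cannot be told apart.

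Of the 10 genes, 7 had between 352 and 5677 counts in every library and passed the filter on low counts. CCND2, CDKN2A and CDKN2B did not pass it and were not tested. Levels were compared between genes only per length, as RPKM (CPM per kilobase of the deposited gene length). In MX, CDKN1A was highest at 50.5 ± 8.69 RPKM (SD, n = 3), followed by CCND1 at 41.0 ± 1.93, CDK4 at 31.7 ± 6.28 and CDKN1B at 20.9 ± 0.789. CCND3 at 11.7 ± 2.11, CDKN2C at 10.8 ± 1.28 and CDK6 at 8.31 ± 2.10 RPKM came next, and neighbours among these 3 overlapped between libraries. The 4 highest genes did not overlap with their neighbours in MX. With YAP1 and YAP1-S127A the order was the same except that CDK6, at 9.58 and 9.25 RPKM, stood above CDKN2C at 8.90 and 8.80, within the spread of both. The order of levels within each group was the same on the TPM scale.

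**Figure D1:**
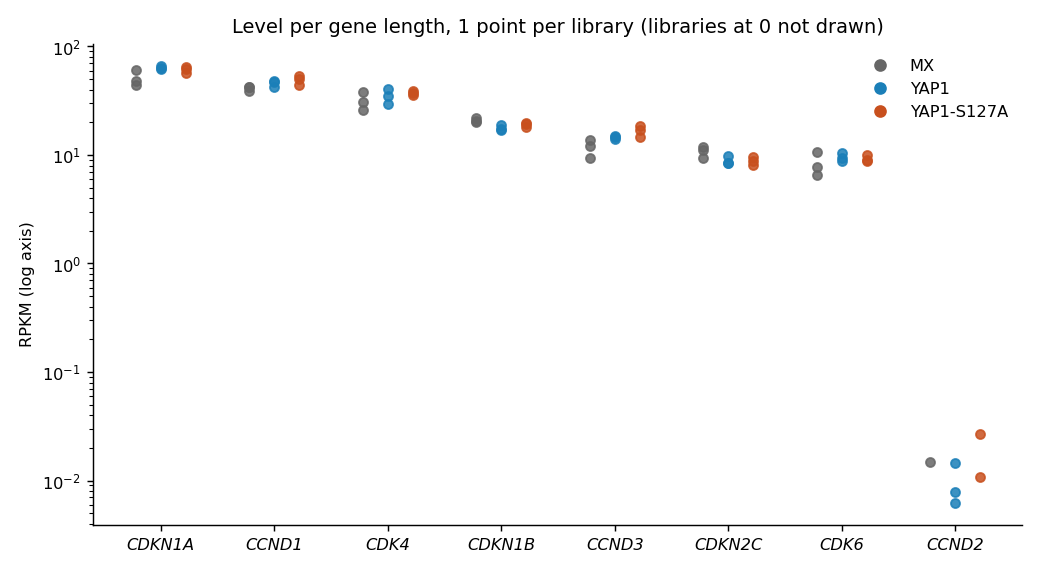
Level per gene length (RPKM, log axis) of the 8 genes with any count, with 1 point per library and colours for the MX, YAP1 and YAP1-S127A groups. CDKN1A, CCND1 and CDK4 lie highest in all groups, and CCND2 lies far below the others, with libraries at 0 not drawn.

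The D cyclins were CCND1 and CCND3, with next to no CCND2. CCND1 (ENSG00000110092) is a plus-strand gene of chromosome 11, from 69641087 to 69654474, in the coordinates of the table, for which the sources used here name no human build. It made up 75.6 to 81.6% of the summed D cyclin RPKM in MX, 75.2 to 76.0% with YAP1 and 74.0 to 75.1% with YAP1-S127A. CCND2 (ENSG00000118971, chromosome 12 from 4273772 to 4305350, plus strand) had 11 counts in all, between 0 and 3 in a library, which is at the floor of 3 counts that a library's depth sets (0.107 to 0.229 CPM). No fold was computed for it.

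CCND3, cyclin D3, was the 1 of 7 tested members that passed in YAP1-S127A against MX, where 18.4% of all tested genes passed. In YAP1 against MX 0 of 7 passed, with 6.81% over all genes, and between the constructs 0 of 7, with 1.97%. CCND3 (ENSG00000112576) lies on chromosome 6 from 41934933 to 42050357 on the minus strand. Its level was 54.9, 70.2 and 79.1 CPM in MX replicates 1, 2 and 3, 87.7, 81.1 and 85.7 CPM with YAP1, and 99.4, 108 and 85.2 CPM with YAP1-S127A. Each library of either construct was above each MX library, and the constructs overlapped. In edgeR's quasi-likelihood test, adjusted by Benjamini-Hochberg over 15492 genes, the log2 fold change of YAP1-S127A against MX was 0.52 (SE 0.133, 95% interval 0.24 to 0.80, adjusted p = 0.00958). For YAP1 against MX it was 0.32 (95% interval 0.040 to 0.60, adjusted p = 0.179), and between the constructs 0.20 (95% interval -0.077 to 0.48, adjusted p = 0.593).

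The CCND3 call depended on a library and on what the libraries were scaled to. Without YAP1-S127A replicate 2, the highest library, the log2 fold change was 0.44 (adjusted p = 0.0588). The 796 tested genes of chromosome 6, where CCND3 and CDKN1A lie, stood at a median of 0.16 (log2) in this comparison, and with such chromosome-wide shifts removed CCND3 had 0.36 (adjusted p = 0.0671). Scaling to total counts put the median over all genes at -0.28, and CCND3 then had 0.25 (adjusted p = 0.236), which is 0.53 above that median. On the TPM scale, which was not tested, CCND3 had 35.2, 37.3 and 53.1 in MX and 27.4, 56.6 and 29.6 with YAP1-S127A. Its mean TPM was thus lower with YAP1-S127A (37.9) than in MX (41.9), with overlap. Mean TPM of CCND1 was lower too, at 110 against 147. Over all 21 alternatives the adjusted p ran from 0.00191 to 0.236, and 18 of them kept the call. These 18 count the fit with YAP1-S127A replicate 2 alone, which does not bear on the call. With the mitochondrial share as covariate CCND3, YAP1-S127A against MX, had 0.66 (adjusted p = 0.0317). The value with YAP1-S127A replicate 2 alone, also 0.66 (adjusted p = 0.0367), rests on the library that is highest for CCND3 and takes its spread from the other groups, so it says nothing on whether the call holds.

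CCND1, cyclin D1, had 202, 187 and 204 CPM in MX, 230, 205 and 225 CPM with YAP1, and 240, 256 and 214 CPM with YAP1-S127A. Every construct library was above every MX library, by as little as 205 against 204 CPM. The log2 fold change was 0.15 with YAP1 (95% interval -0.083 to 0.39, edgeR adjusted p = 0.507) and 0.26 with YAP1-S127A (95% interval 0.021 to 0.49, adjusted p = 0.123), neither past the threshold. Scaled to total counts the YAP1-S127A value was -0.013 (adjusted p = 0.959), which is 0.27 above the median of all genes. With chromosome-wide shifts removed it was 0.33 and passed (adjusted p = 0.0409), as chromosome 11 genes had a median of -0.080. Between the constructs CCND1 differed by 0.10 (95% interval -0.13 to 0.34).

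**Figure D2:**
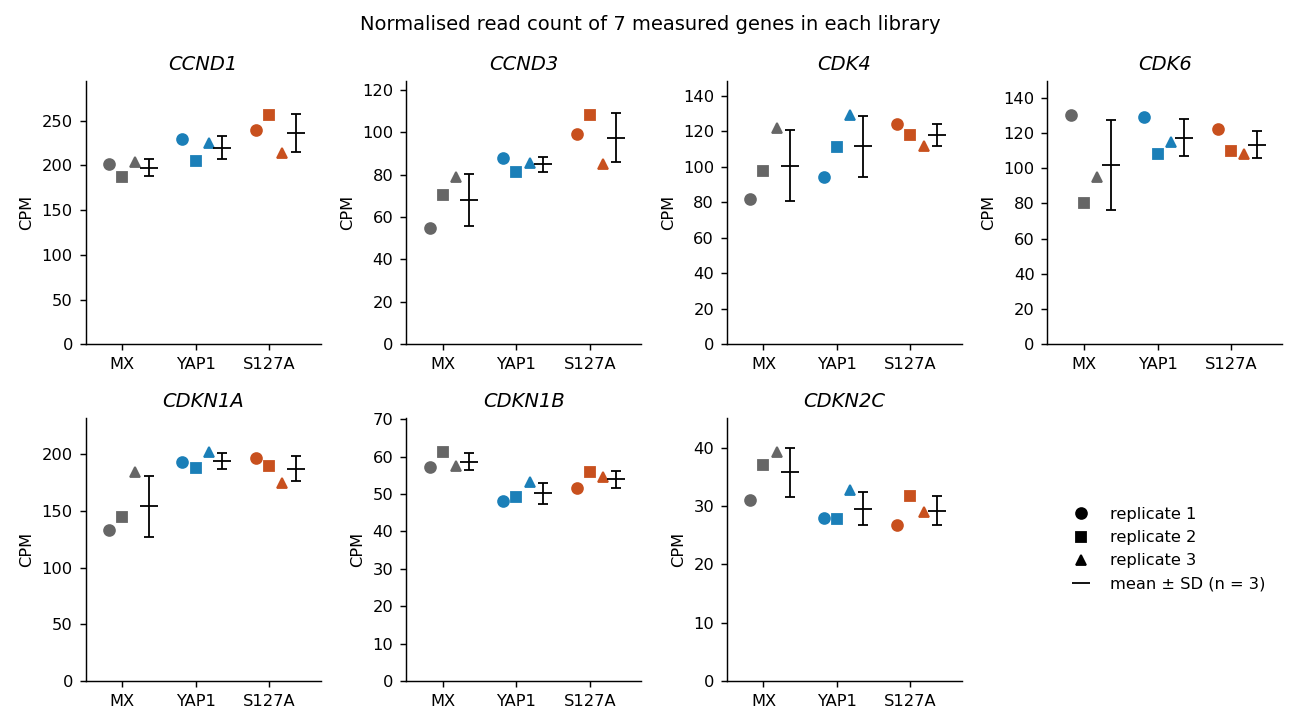
Normalised read count (CPM, TMM scaled) of the 7 tested genes in each of the 9 libraries, with symbols for replicate number and a bar for mean ± SD (n = 3) per group. CCND1 and CCND3 lie higher in every construct library than in MX, CDKN1B lies lower, and the MX libraries are widely spread for CDK4, CDK6, CDKN1A and CCND3.

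The kinases did not pass the test in any of the 3 comparisons. CDK4 (ENSG00000135446, chromosome 12 from 57747727 to 57756013, minus strand) had 82.1, 97.9 and 122 CPM in MX, 94.5, 111 and 129 CPM with YAP1, and 124, 118 and 112 CPM with YAP1-S127A, and all groups overlapped. Its log2 fold change was 0.15 with YAP1 (95% interval -0.14 to 0.45, edgeR adjusted p = 0.625) and 0.23 with YAP1-S127A (95% interval -0.065 to 0.53, adjusted p = 0.285). CDK6 (ENSG00000105810, chromosome 7 from 92604921 to 92836594, minus strand) had 130, 80.4 and 94.9 CPM in MX, 129, 108 and 115 CPM with YAP1, and 122, 110 and 108 CPM with YAP1-S127A. MX replicate 1 was the highest of all 9 libraries for CDK6 and the lowest for CDK4, CCND3 and CDKN1A.

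That library set the CDK6 result. With all libraries the log2 fold change of CDK6 was 0.20 with YAP1 (adjusted p = 0.492) and 0.15 with YAP1-S127A (adjusted p = 0.521). Without MX replicate 1 the values were 0.42 (adjusted p = 0.0246) and 0.36 (adjusted p = 0.0304), both past the threshold in edgeR's test. MX replicate 1 also had 25491 genes detected, against 22115 and 22738 in the other MX libraries.

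Among the CIP/KIP inhibitors, CDKN1A and CDKN1B had log2 fold changes of opposite sign against MX, and neither passed. CDKN1A (ENSG00000124762, chromosome 6 from 36676460 to 36687339, plus strand) had 133, 145 and 184 CPM in MX, 193, 188 and 202 CPM with YAP1, and 197, 190 and 175 CPM with YAP1-S127A. The YAP1 libraries were above all MX libraries, and YAP1-S127A overlapped with MX through MX replicate 3. The log2 fold change was 0.33 with YAP1 (95% interval 0.074 to 0.59, edgeR adjusted p = 0.125) and 0.28 with YAP1-S127A (95% interval 0.018 to 0.54, adjusted p = 0.131). Without MX replicate 3 both passed, at 0.48 (adjusted p = 0.0389) and 0.42 (adjusted p = 0.0371). With the chromosome 6 shift removed they were 0.15 (adjusted p = 0.594) and 0.12 (adjusted p = 0.547).

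CDKN1B (ENSG00000111276, chromosome 12 from 12715058 to 12722371, plus strand) had 57.2, 61.2 and 57.6 CPM in MX, 48.1, 49.1 and 53.2 CPM with YAP1, and 51.5, 55.9 and 54.4 CPM with YAP1-S127A. All 6 construct libraries were below all 3 MX libraries. The log2 fold change was -0.23 with YAP1 (95% interval -0.45 to -0.0042, edgeR adjusted p = 0.241) and -0.12 with YAP1-S127A (95% interval -0.34 to 0.10, adjusted p = 0.479). The 848 tested genes of chromosome 12 stood at a median of -0.14 (log2) in YAP1 against MX, and with such shifts removed CDKN1B had -0.094 (adjusted p = 0.699).

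Of the INK4 inhibitors in the list, CDKN2C was measured and CDKN2A and CDKN2B were at 0. CDKN2C (ENSG00000123080, chromosome 1 from 50960745 to 50974633, plus strand) had 31.1, 37.0 and 39.3 CPM in MX, 28.0, 27.8 and 32.8 CPM with YAP1, and 26.8, 31.8 and 29.0 CPM with YAP1-S127A. MX replicate 1 overlapped with both construct groups, and the other MX libraries lay above all construct libraries. The log2 fold change was -0.28 with YAP1 (95% interval -0.54 to -0.011, edgeR adjusted p = 0.229) and -0.29 with YAP1-S127A (95% interval -0.56 to -0.025, adjusted p = 0.122). Without MX replicate 1 the YAP1-S127A value passed at -0.39 (adjusted p = 0.0275), and the YAP1 value was -0.37 (adjusted p = 0.0613). It also passed with scaling to total counts, at -0.56 (adjusted p = 0.00686), which is -0.28 against the median of all genes.

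CDKN2A (ENSG00000147889, chromosome 9 from 21967753 to 21995301, minus strand) and CDKN2B (ENSG00000147883, chromosome 9 from 22002903 to 22009363, minus strand) had 0 counts in each of the 9 libraries. The libraries together held 176613915 counts, and a count of 0 allows up to 3 counts per library, or 0.107 to 0.229 CPM. The zeros formed a stretch. Along the table's chromosome 9, the antisense gene CDKN2A-DT, CDKN2A, CDKN2B-AS1, CDKN2B and 5 other annotated genes up to AL157937.1 (from 22203990) were at 0 in all libraries. MTAP, the methylthioadenosine phosphorylase gene just before them (from 21802543 to 21937651), had 508 to 1475 counts, and DMRTA1, a transcription factor gene just after them (from 22446841 to 22455740), had 102 to 238 counts. AL359922.1, whose span runs from inside MTAP to beyond CDKN2B, was at 0 as well.

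In the table as a whole, 14.6% of 19951 protein-coding genes and 45.5% of all genes were at 0 in all libraries. Of 15 chromosome 9 neighbours on a fixed list, 11 were tested, and 0 passed edgeR's test in each comparison, against 6.81%, 18.4% and 1.97% of all tested genes. Unadjusted p was below 0.05 for 2, 4 and 0 of them, and DESeq2 and limma-voom called 0. Across alternatives the count in YAP1-S127A against MX ran up to 4. CDKN2A and CDKN2B are close copies in part of their sequence, and CDKN2B-AS1 overlaps CDKN2B on the other strand. How reads shared between such genes were counted is unknown here. The cause of the zeros was not tested.

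**Figure D3:**
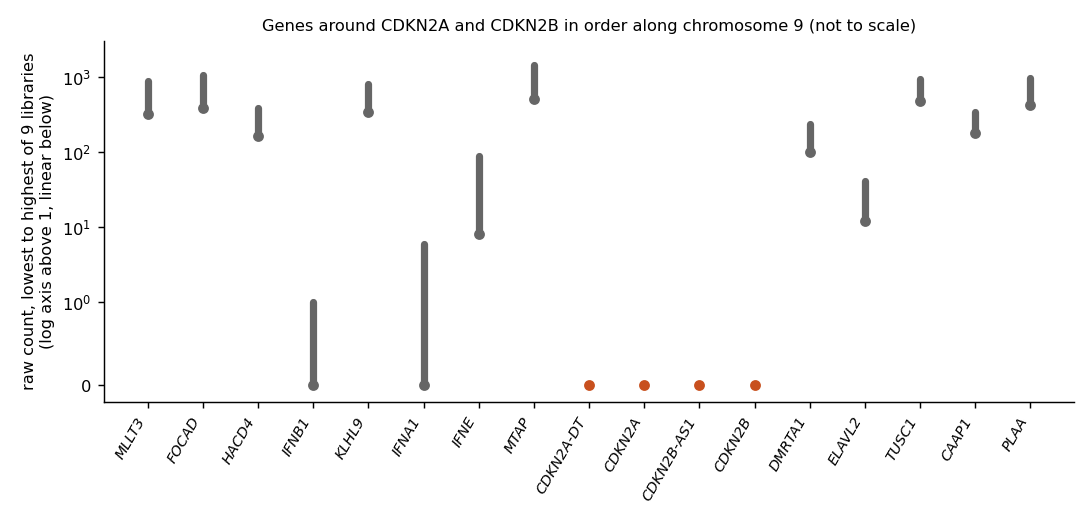
Raw counts of CDKN2A, CDKN2B and their listed neighbours in order along chromosome 9 (spacing not to scale), each bar running from the lowest to the highest of 9 libraries on an axis that is logarithmic above 1. CDKN2A-DT, CDKN2A, CDKN2B-AS1 and CDKN2B are at 0 in every library, between MTAP with 508 to 1475 counts and DMRTA1 with 102 to 238 counts.

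The counts of members past the test are set here beside those of all genes, and with 7 members tested they are too few to be read as above or below that background. In YAP1 against MX 0 of the 7 tested members passed edgeR's test, where 6.81% of all tested genes passed. For 4 of them the unadjusted p was below 0.05, and DESeq2 and limma-voom called 0. In YAP1-S127A against MX 1 of 7 passed with each of the 3 tools (unadjusted p below 0.05 for 4), where 18.4% of all genes passed edgeR's test. Between the constructs 0 of 7 passed with edgeR, DESeq2 or limma-voom (unadjusted p below 0.05 for 0), with 1.97% over all genes. Groups did not overlap for 4, 3 and 0 of the 7 members in these comparisons, against 24.1%, 32.6% and 19.6% of all tested genes. The median log2 fold change of the tested members was 0.15, 0.23 and 0.080, with medians over all genes of -0.0036, -0.0045 and 0.0056. The comparisons against MX share the MX libraries. Without MX replicate 1 the counts of members past the test were 1, 3 and 0, without MX replicate 3 they were 1, 2 and 0, and without YAP1-S127A replicate 2 they were 0, 0 and 0.

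**Figure D4:**
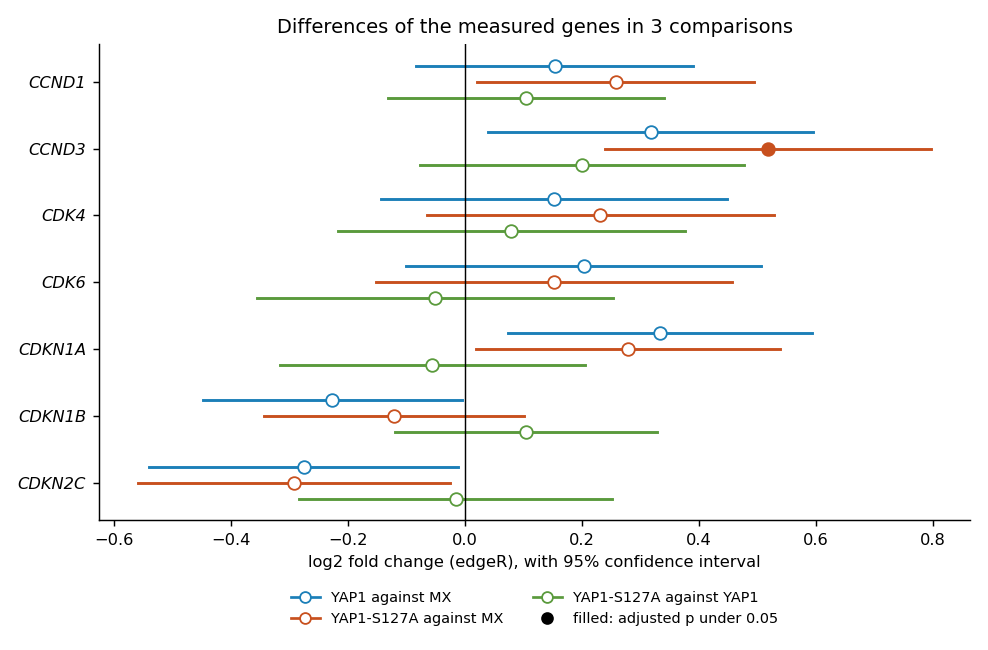
Log2 fold changes of the 7 tested genes with 95% confidence intervals from edgeR's test in the 3 comparisons, filled where the adjusted p is under 0.05. The 1 filled point is CCND3 in YAP1-S127A against MX at 0.52, and the intervals of the comparison between the constructs all include 0.

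Ratios between members within a library do not depend on how libraries are scaled, and they are given here as a description with no test, chosen with the values known. The ratio of CDKN1A to CDKN1B in RPKM was 2.15, 2.18 and 2.94 in MX, 3.69, 3.52 and 3.51 with YAP1, and 3.52, 3.13 and 2.96 with YAP1-S127A. All construct libraries were above all MX libraries, by as little as 2.96 against 2.94. The ratio of CDKN1A to CDKN2C was 4.66, 4.27 and 5.09 in MX, 7.50, 7.35 and 6.71 with YAP1, and 7.97, 6.50 and 6.55 with YAP1-S127A, with no overlap between MX and either construct. The first of these ratios holds the chromosome-wide shifts of chromosomes 6 and 12, and the second those of chromosomes 6 and 1. Chromosome 1 genes had a median of -0.015 (log2) with YAP1 and -0.022 with YAP1-S127A, both against MX. With chromosome-wide shifts removed, the log2 fold changes in YAP1 against MX were 0.15 for CDKN1A and -0.094 for CDKN1B, in place of 0.33 and -0.23. CDKN1C, a measured inhibitor outside the list, had 35.9, 37.6 and 51.0 RPKM in MX, YAP1 and YAP1-S127A, beside 50.5, 63.7 and 61.3 RPKM for CDKN1A.

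The ratio of CCND1 to CCND3 was 4.43, 3.20 and 3.10 in MX, 3.15, 3.04 and 3.16 with YAP1, and 2.90, 2.85 and 3.02 with YAP1-S127A. MX replicate 1 stood apart, and the YAP1-S127A libraries were below all others. This ratio holds the chromosome-wide shifts of chromosomes 11 and 6. With those removed, the log2 fold changes in YAP1-S127A against MX were 0.33 for CCND1 and 0.36 for CCND3, in place of 0.26 and 0.52. The ratio of CDK4 to CDK6 was 2.44 to 4.96 in MX, 2.83 to 4.36 with YAP1 and 3.93 to 4.16 with YAP1-S127A. Summed CDKN1B and CDKN2C against summed CDK4 and CDK6 gave 0.701 to 0.879 in MX, 0.574 to 0.633 with YAP1 and 0.539 to 0.635 with YAP1-S127A. Here too the construct libraries did not overlap with MX. The ratio of CCND1 to CDKN1A did overlap, at 0.700 to 0.959 in MX, 0.689 to 0.752 with YAP1 and 0.771 to 0.851 with YAP1-S127A. How often ratios between other genes fail to overlap was not computed. For single genes that share was 24.1% in YAP1 against MX and 32.6% in YAP1-S127A against MX. Chromosome-wide shifts were not removed from any of these ratios.

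**Figure D5:**
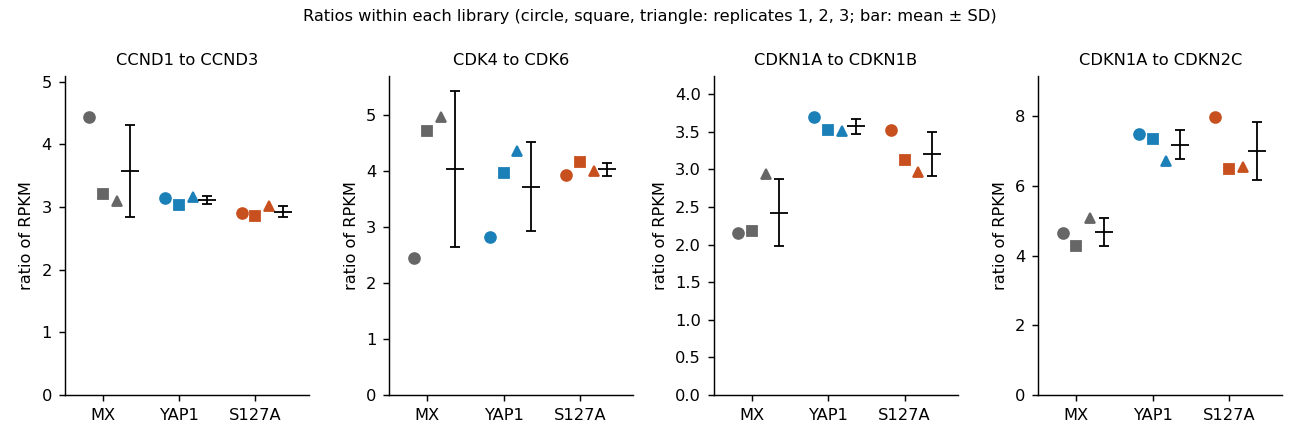
Ratios of RPKM between pairs of members within each library, with symbols for replicates 1, 2 and 3 and a bar for mean ± SD (n = 3) per group. CDKN1A against CDKN1B and against CDKN2C is higher in every construct library than in MX, and MX replicate 1 lies apart for CCND1 to CCND3 and CDK4 to CDK6.

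The genes most like CCND3 over the 9 libraries, by Pearson's r of log2 CPM among 9522 protein-coding genes whose log2 CPM averaged 3 or more, were ARAF, a RAF kinase (0.984), AP2A1, a subunit of the clathrin adaptor AP-2 (0.980), and CARD10, a scaffold of NF-kB signalling (0.979). Genes picked for following CCND3 over these same libraries are bound to differ between the groups in the same direction. Their p-values are therefore no separate evidence. In YAP1-S127A against MX AP2A1 rose by 0.46 (edgeR adjusted p = 0.0127) and CARD10 by 0.36 (adjusted p = 0.0408), while ARAF had 0.34 (adjusted p = 0.0645). AP2A1 had an adjusted p of 0.0582 without YAP1-S127A replicate 2, and ARAF one of 0.0432 without MX replicate 3. The call of CARD10 was lost (adjusted p = 0.0551 to 0.146) without any 1 library other than MX replicates 2 and 3.

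Downstream of the members, the RB1 and E2F list had 15 genes, all tested. In YAP1-S127A against MX 1 of them rose and 1 fell, where 9.53% of all tested genes rose and 8.84% fell. Counts in this and the lists below were not tested against such shares. E2F1, an activating E2F, went from 38.4 ± 6.46 to 59.5 ± 3.10 CPM (SD, n = 3), up by 0.64 in log2 (edgeR adjusted p = 0.00166). Scaled to total counts E2F1 had 0.37 (adjusted p = 0.0716). E2F2, a related factor, fell by 0.77 from a level of only 3.71 to 2.21 CPM (adjusted p = 0.0497, and 0.0616 to 0.200 without any of the MX libraries, YAP1 replicate 2 or YAP1-S127A replicates 2 or 3). RB1 had 48.8 ± 4.49 CPM in MX and 57.3 ± 5.06 CPM with YAP1-S127A (SD, n = 3), which did not pass at 0.23 in log2 (adjusted p = 0.179). In YAP1 against MX and between the constructs 0 of 15 passed edgeR's test, against 6.81% and 1.97% of all tested genes. Unadjusted p was below 0.05 for 3 and 2, and DESeq2 and limma-voom called 0. Across alternatives the count in YAP1-S127A against MX ran from 1 to 4. The list's median log2 fold changes were 0.082 with YAP1, 0.0073 with YAP1-S127A and -0.044 between the constructs.

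Of 26 E2F target genes of DNA synthesis, such as MCM2 and PCNA, 0 passed edgeR's test in each of the 3 comparisons. The shares over all tested genes were 6.81%, 18.4% and 1.97%. Unadjusted p was below 0.05 for 4 in each, DESeq2 called 1, 0 and 0, and limma-voom called 0. MCM2, a subunit of the replicative helicase, had 0.50 in YAP1 against MX (adjusted p = 0.0525). The medians were 0.082, -0.016 and -0.15. Scaled to total counts, 7 of the 26 passed as lower in YAP1-S127A against MX, where the median of all genes was -0.28.

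Among 11 later cyclins, kinases and activators, CCNA1, a cyclin A known from the germ line, rose by 1.06 in YAP1-S127A against MX, from 2.85 to 6.10 CPM (edgeR adjusted p = 0.0123, and 0.0925 without YAP1-S127A replicate 2). The other 10 did not pass, among them CDK2 (0.27, adjusted p = 0.119) and CCNE1, cyclin E1 (-0.33, adjusted p = 0.145). In this comparison 18.4% of all tested genes passed. In the other 2 comparisons 0 of 11 passed edgeR's test, against 6.81% and 1.97% of all tested genes. Unadjusted p was below 0.05 for 1 and 2, and neither DESeq2 nor limma-voom called any (0).

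Of 5 other CDK inhibitors, 2 rose in YAP1-S127A against MX, where 9.53% of all tested genes rose. A list of 5 is too short to be read against that share. CDKN1C (p57), the third CIP/KIP inhibitor, went from 88.9 ± 19.9 to 126 ± 10.3 CPM (SD, n = 3), up by 0.51 in log2 (edgeR adjusted p = 0.0150, and 0.0701 without YAP1-S127A replicate 1). CDK2AP1, a CDK2-binding protein, rose by 0.58 (adjusted p = 0.00820). CDKN2D (p19), the remaining INK4 inhibitor, had 4.90 ± 1.70 CPM in MX and 6.49 ± 1.89 CPM with YAP1-S127A (SD, n = 3, adjusted p = 0.257). In the other 2 comparisons 0 of 5 passed edgeR's test, against 6.81% and 1.97% of all tested genes. Unadjusted p was below 0.05 for 0 and 2, and the other tools called 0.

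Upstream, 18 genes of D cyclin and p27 turnover were tested. As background, 6.81%, 18.4% and 1.97% of all tested genes passed in the 3 comparisons. CRYAB, a small heat shock protein that with FBXO4 acts in cyclin D1 degradation, went from 39.9 ± 7.21 CPM in MX to 70.9 ± 10.7 with YAP1 and 161 ± 27.7 with YAP1-S127A (SD, n = 3). It rose by 0.83 (edgeR adjusted p = 0.00178) and 2.02 (adjusted p = 2.87e-08), and was higher with YAP1-S127A than with YAP1 by 1.19 (adjusted p = 0.000297). AMBRA1, a receptor of the ligase that degrades D cyclins, fell by 0.43 with YAP1-S127A (adjusted p = 0.0167, and 0.0716 to 0.0812 without MX replicate 3 or YAP1-S127A replicate 2 or 3). No other gene of this list passed in these fits, including SKP2 and CKS1B, which mark p27 for degradation, at 0.036 and 0.11 in YAP1-S127A against MX. Unadjusted p was below 0.05 for 1, 3 and 2 of the 18. Across alternatives the count past the test ran from 1 to 5 in YAP1-S127A against MX and from 1 to 2 between the constructs.

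Of 26 transcription factors known to act on the members, 23 were tested. Against MX, 6.81% of all tested genes passed with YAP1 and 18.4% with YAP1-S127A. With YAP1, ETS1 rose by 0.60 (edgeR adjusted p = 0.0209, and 0.0797 to 0.137 when replicate 2 or 3 of MX or replicate 1 of YAP1 was left out). MYC, an activator of CCND2 and repressor of CDKN1A, rose by 0.47, from 145 ± 20.3 to 202 ± 7.04 CPM (SD, n = 3, adjusted p = 0.0450), and lost the call (adjusted p = 0.0531 to 0.156) without any 1 of MX replicates 1 and 2, the YAP1 libraries and YAP1-S127A replicate 1. With YAP1-S127A MYC was at 152 ± 28.7 CPM (SD, n = 3).

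With YAP1-S127A, BMI1 and ETS1 rose, and HES1 and FOXO1 were among the factors that fell. BMI1, a polycomb protein that represses the CDKN2A locus, rose by 0.51 (edgeR adjusted p = 0.0138, and 0.0981 without YAP1-S127A replicate 3), and ETS1 by 0.48 (adjusted p = 0.0344, and 0.0551 to 0.140 without MX replicate 2 or 3 or any 1 YAP1-S127A library). HES1, a Notch target, fell by 0.97 (adjusted p = 0.00945, and 0.0921 without MX replicate 1). FOXO1, an activator of CDKN1B, fell by 0.53 (adjusted p = 0.0455, and 0.0574 to 0.181 without any 1 library other than MX replicate 2 and YAP1-S127A replicate 1).

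Among 30 genes of growth arrest and the DNA damage response, 1 rose with YAP1 and 3 rose and 1 fell with YAP1-S127A. Of all tested genes 3.23% rose with YAP1, and 9.53% rose and 8.84% fell with YAP1-S127A. Between the constructs 1.97% of all tested genes passed. POLH, a translesion polymerase, rose by 0.68 with YAP1 (edgeR adjusted p = 0.0113, and 0.0509 without MX replicate 3) and by 0.65 with YAP1-S127A (adjusted p = 0.00712). It lies on chromosome 6, and with that shift removed its YAP1 value was 0.49 (adjusted p = 0.0692). PLK2, a polo-like kinase, rose by 0.57 with YAP1-S127A (adjusted p = 0.00181), GADD45A, a growth arrest protein, by 0.63 (adjusted p = 0.00745, and 0.0616 without YAP1-S127A replicate 3), and BTG2, an antiproliferative protein, fell by 0.65 (adjusted p = 0.00167). MDM2, a ubiquitin ligase, had 113, 115 and 122 CPM in MX, YAP1 and YAP1-S127A, with log2 fold changes against MX of 0.035 and 0.11. Medians of the list were 0.057 and 0.16 against MX and 0.10 between the constructs, where 0 of 30 passed edgeR's test (unadjusted p below 0.05 for 3, and 0 calls with DESeq2 or limma-voom). Without MX replicate 1 the count of genes of this list past the test in YAP1-S127A against MX was 8, and with the mitochondrial share as covariate it was 0.

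Many of the genes named above for YAP1-S127A against MX missed the threshold once the mitochondrial share was a term of the fit, most of them with log2 fold changes of like size. The edgeR calls lost with it were those of CDKN1C, CDK2AP1, AMBRA1, FOXO1, BMI1, ETS1, PLK2, BTG2, GADD45A, POLH, AP2A1 and CARD10, 12 in all (adjusted p = 0.0531 to 0.667). With YAP1-S127A replicate 2 alone, the library of that group with the lowest mitochondrial share, these 12 and E2F2 did not pass (adjusted p = 0.0552 to 0.852), and the group then held 1 library, assumed to vary like the others. The log2 fold change of GADD45A went from 0.63 to 0.17 with the covariate and to 0.077 with replicate 2 alone. Those of the other genes shrank less or not at all. With the covariate CDKN1C had 0.45, CDK2AP1 0.52, AMBRA1 -0.49, FOXO1 -0.82, BMI1 0.57, ETS1 0.46, PLK2 0.46, BTG2 -0.59, POLH 0.60, AP2A1 0.57 and CARD10 0.44. With replicate 2 alone the values were 0.43 for CDKN1C, 0.56 for CDK2AP1, -0.53 for AMBRA1, -0.83 for FOXO1, 0.46 for BMI1, 0.41 for ETS1, 0.40 for PLK2, -0.59 for BTG2, 0.63 for POLH, 0.54 for AP2A1, 0.44 for CARD10 and -0.93 for E2F2. The mitochondrial share differed between the groups, at 7.40 to 29.6% with YAP1-S127A and 1.896 to 6.60% in MX. Its part in these differences therefore cannot be told apart from that of the construct, and was not tested. Scaling to total counts ended the calls of CCND3, E2F1, CDKN1C, CDK2AP1, BMI1, ETS1, PLK2, GADD45A, POLH, AP2A1 and CARD10 (adjusted p = 0.0716 to 0.688). CRYAB, HES1 and CCNA1 kept their calls in this comparison under these 3 settings, and the log2 fold change of CRYAB was then 1.77 to 2.36. E2F2 also missed the threshold with limma-voom (adjusted p = 0.0514), with DESeq2's size factors in edgeR (0.0508), with only the groups compared (0.0627) and with chromosome-wide shifts removed (0.0609). MYC in YAP1 against MX missed it with total counts (0.151), limma-voom (0.0526), the covariate (0.0766) and chromosome-wide shifts removed (0.0617).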

How the data were processed

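RNA-seq of 9 libraries was deposited as 1 table of raw counts per gene, whole numbers that carry no sign of scaling. The submitters' processing notes name HISAT2, Cufflinks, Salmon 1.9.0 and a mouse build, and the labels name the mouse, but the deposited table lists human Ensembl genes and is read here as human. The sources used here give neither the counting program nor its strand setting. The gene length deposited beside the counts served for RPKM and TPM, computed here.

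Genes were kept by filterByExpr (15492 of 58735), scaled by TMM and fitted on all 9 libraries with edgeR 4.0.16 in R 4.3.3 (robust quasi-likelihood test, group as the only term, two-sided), adjusted over all tested genes and called under 0.05. CPM values are on the TMM scale. Standard errors are the absolute log2 fold change over the square root of F, and intervals are at 95%. Floors of 3 counts cover counting error only.

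The members and gene lists were chosen with earlier results of these data known. Named genes were all members, up to 3 called genes per list and comparison with the smallest p, the 3 genes most like each called member, and YAP1, ANKRD1 and CYR61. FOXO1, GADD45A, MCM2, RB1, CDK2, CCNE1, CDKN2D, SKP2, CKS1B, MDM2, and the value of ETS1 with YAP1-S127A were added after their values were seen. Alternatives were other scalings and filters, DESeq2 1.42.0, limma-voom (limma 3.58.1), only the groups compared, a replicate block, mitochondrial genes left out or their share as covariate, chromosome-wide shifts removed, each library left out, and, chosen after seeing the data, YAP1-S127A replicate 2 alone. In simulated data (15492 genes) the fit found 43.3% of true 1.5-fold changes and 69.6% of 2-fold changes between YAP1 and MX. Between YAP1-S127A and MX it found 40.6% and 68.4%, and between the constructs 46% and 61%. False calls were 11, 8 and 7 in the 3 comparisons. The changed genes were drawn at random over all tested genes, so these shares are not those of the members. Between YAP1 and MX, 67 genes were changed 1.5-fold, 69 by 2-fold and 64 by 4-fold, against 1055 genes past the test in the data. The shares thus belong to a setting with fewer changed genes than the data. No human sequence was printed, since none of that species was used here. Results for 1 transcription factor are not reported here.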

Additional observations from a re-analysis of the deposited data

How the results depend on the processing

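CCND3 kept its direction in YAP1-S127A against MX under all 21 alternatives run and its call under 18, counting YAP1-S127A replicate 2 alone. TPM was not among these alternatives, and on that scale the mean of CCND3 was 41.9 in MX and 37.9 with YAP1-S127A. Over the alternatives, a member's value turned direction in 12 cases, all in results that had not passed. Scaled to total counts, CCND1 had -0.013, CDK4 -0.042 and CDK6 -0.14 in YAP1-S127A against MX, and CCND1 -0.096, CDK4 -0.12 and CDKN1B -0.093 between the constructs, where the medians of all genes were -0.28 and -0.20. With 1 library left out, the values between the constructs ran from -0.033 to 0.20 for CDK4, from -0.11 to 0.017 for CDK6 and from -0.084 to 0.066 for CDKN2C. CDK4 and CDK6 turned without YAP1 replicate 1, and CDKN2C without YAP1 replicate 3 (0.066) or YAP1-S127A replicate 1 (0.032). CDKN2C had 0.072 with the mitochondrial share as covariate and 0.093 with YAP1-S127A replicate 2 alone. There CYR61, another YAP target, had -0.063 between the constructs, against 0.38 with all libraries. The cause was not tested.

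Counts of genes past the test were 1055 with YAP1 and 2845 with YAP1-S127A, both against MX, and 305 between the constructs. The second was 4447 with scaling to total counts (611 higher and 3836 lower, against 1476 and 1369), 1405 with the mitochondrial share as covariate and 1278 with YAP1-S127A replicate 2 alone. The third was 616 with total counts (113 higher and 503 lower, against 175 and 130), 520 with no filter, 475 with DESeq2, 478 with only the groups compared and 151 with YAP1-S127A replicate 2 alone. With total counts the first split into 311 higher and 679 lower, against 500 and 555. With 1 library left out the counts ran from 601 to 1423, 1847 to 3079 and 126 to 465, and counts of members from 0 to 1, 0 to 3 and 0 to 0. With chromosome-wide shifts removed the 1 member past the test was CCND1, and with total counts it was CDKN2C.

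With the replicate number as a block the counts of genes were 1428, 3426 and 472, and those of members 0, 1 and 0. The labels do not say that the numbers pair libraries. Deviations from group means of same-numbered libraries correlated by -0.178 to 0.204, with 1 of 9 pairs over 0.1, and 3 of 9 libraries correlated best with their own number.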
